A study of Homo sapiens with 3 samples.

Results

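Ribosome peaks on transcripts made of 1 exon were examined in HEK293T, an embryonic kidney line of human origin, in cells that carried empty vector, wild-type DDX3X or the mutant DDX3X G325E. A peak is a stretch of the genome where ribosome-protected mRNA fragments were called as enriched. The single-exon peaks were the rows of the 3 peak lists placed in the exon, 5′-UTR or 3′-UTR class of a transcript whose annotation read exon 1 of 1. They numbered 1600 (392 in vector, 547 in WT DDX3X and 661 in G325E) of the 24963 peaks of these classes (6254, 11620 and 7089) and of 46819 peaks of every class. They lay on 113 genes, of which 73 had a peak in vector, 93 in WT and 94 in G325E. The remaining peaks of the 3 classes, on transcripts with several exons, are called multi-exon peaks here.

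DDX3X is a DEAD-box RNA helicase with a part in translation initiation, and G325E is a substitution in it found in medulloblastoma. The vector cells received an empty plasmid and no DDX3X, whereas the other cells received a plasmid for FLAG-tagged WT DDX3X or FLAG-tagged DDX3X G325E, in each case for 24 h and on top of the endogenous gene. By the labels all cells then received harringtonine (2 µg/ml, 90 s), which stalls ribosomes at start codons, and cycloheximide (100 µg/ml), which stops elongation. The study's methods name only cycloheximide, and which account applies was not settled. Each construct had 1 library and no replicate, so the variation from culture to culture is not known and no test was made. Intervals are at the 95% level and cover counting error over peaks only, and peaks of 1 gene share their transcript and are not independent.

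Most human genes are split by introns, and splicing leaves on the mRNA a protein complex that favours export and translation. Intronless genes lack this step. They include the replication-dependent histones, whose mRNAs end in a stem-loop in place of a poly(A) tail, the stress-inducible HSP70 chaperones, many transcription factors of the SOX, POU and FOX families, early-response genes such as JUN, some receptors, and copies of spliced genes that arose by reverse transcription. Many of them have short and GC-rich coding sequences.

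The lists held positions only, so the reads behind a peak are not known. The study gives read totals per library, and the unique mapped reads were most in WT and fewest in G325E, so depth differed between the lists compared and its part in the differences was not tested. The peak numbers of the vector list skipped 1952 values (14.8%) and those of the WT list 3099 (13.5%), whereas the G325E list skipped 0. Of these, 157 in vector and 198 in WT fell between the peaks that flank the single-exon genes, and what those rows held is not known. On DDX3X itself the lists held 0 peaks in vector, 32 in WT and 9 in G325E. The labels give the cell type of this kidney line as neuronal, and 3 of 12 neuronal markers had a peak in each list (NEFL, NEFM and TUBB3), as did 0, 1 and 1 of 6 markers of embryonic kidney in vector, WT and G325E.

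The sequences under the longest coding peaks show what the lists shared and where they parted. Each run below is the 29 nt of GRCh37 centred on such a peak, on the strand of the transcript from 5′ to 3′, with G and C in capitals. FOXE1 and POU3F3 are shown because they had 14 and 11 exon and UTR peaks in G325E and at most 1 in each other list. SOX4 and ADRB1 are shown as examples of genes where the lists peaked at different places of 1 coding sequence. HEXIM1 is shown because it had peaks in WT alone, and HIST2H4A because WT and G325E had the same peak.
FOXE1, G325E, chr9:100616969-100616997, plus strand, codon 263: CCaCCGGCtaCCaGCCCGCaGGCtGCaCC
POU3F3, G325E, chr2:105472421-105472449, plus strand, codon 156: CGGCGCCGGGCGCGaCGaCCtGCaCGCGG
SOX4, vector, chr6:21594892-21594920, plus strand, codon 47: GGCGGCaaGGCCGaCGaCCCGaGCtGGtG
SOX4, G325E, chr6:21595805-21595833, plus strand, codon 352: CGtCCCCCGCCGCCGGCCGCtCGCCCGCC
ADRB1, vector, chr10:115805098-115805126, plus strand, codon 407: GCGaCCCaCGGaGaCCGGCCGCGCGCCtC
ADRB1, G325E, chr10:115804754-115804782, plus strand, codon 293: GaCCCCCGCGCCCCGCCGCCGCCGCCGCC
HEXIM1, WT, chr17:43226989-43227017, plus strand, codon 149: GCaGaGaCaGCtGGGGaaGaaaaaaCata
HIST2H4A, WT and G325E, chr1:149804492-149804520, plus strand, codon 86: GtCaCaGCCatGGatGtGGtGtaCGCGCt
Of these 29 bases, 27 were G or C in the SOX4 window of G325E against 22 in that of vector, 28 against 24 in the ADRB1 windows, and 13 in the HEXIM1 window. Other genes with separate longest peaks went either way. From vector to G325E the G or C bases numbered 20 and 25 on FZD1 but 23 and 18 on POU3F2. On CEBPB they numbered 19 and 19, and on H2AFX and on PCBP1 22 and 21. The HIST2H4A window occurs at 2 places in the genome, so its reads could have come from either.

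Single-exon peaks made up a larger share of the G325E list than of the others. They were 6.27% (5.69 to 6.90) of exon and UTR peaks in vector, 4.71% (4.34 to 5.11) in WT and 9.32% (8.67 to 10.02) in G325E. The G325E share was 4.62 percentage points above WT (3.85 to 5.41) and 3.06 above vector (2.15 to 3.96), and the difference between WT and vector was −1.56 points (−2.29 to −0.861). If every peak number missing at these genes had been a single-exon peak, the shares would be 8.56%, 6.30% and 9.32%, with G325E 3.02 points above WT (2.22 to 3.84) and 0.761 above vector (−0.205 to 1.72). The order over WT therefore held with the missing rows counted, and the order over vector then lay within counting error.

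Per gene, the median number of peaks over the 113 genes was 2 in vector, 3 in WT and 4 in G325E, and the highest was 19, 40 and 24, each time on IRS4. After scaling to the exon and UTR totals of the lists, with 0.5 added, 63 of these genes had at least 10 peaks in all and could be compared. Against WT, 27 of 63 were at least 2-fold higher in G325E and 7 were lower, where 17.6% and 26.8% of all 883 genes compared were. Against vector, 18 were higher in G325E and 3 lower (19.1% and 27% of all genes). WT itself was higher than vector on 13 and lower on 25 (20% and 18.5% of all genes). The median log2 ratio of G325E to WT was 0.93 over the single-exon genes and 0.12 over all genes, that of G325E to vector 0.33 and −0.16, and that of WT to vector −0.80 and −0.45. With the lists scaled by the median ratio of the genes instead, the 25 genes lower in WT than in vector became 6 (3.85% of all genes), and 18 were higher in G325E than in WT (9.85%). With missing peak numbers counted as peaks of the list with fewer, 16 of the 27 and 16 of the 25 stayed past 2-fold. The 7 genes lower in G325E than in WT could not change under this count, since the G325E list skipped 0 numbers.

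Many of these calls rest on genes with 0 peaks in the lower list. This held for 7 of the 27 genes higher in G325E than in WT and for 6 of the 7 lower. Against vector it held for 13 of the 18 genes higher in G325E and for 3 of the 3 lower. For WT against vector it held for 13 of the 13 higher and for 4 of the 25 lower. Such calls set presence of peaks against absence, and the size of their ratio depends on the constant added. Among the 63 genes, 16 had 0 peaks in vector (16.8% of all genes compared), 7 had 0 in WT (2.94%) and 6 had 0 in G325E (18.7%). In all, 62 of the 113 genes had peaks in every list and held 1150 of the 1600 peaks. G325E alone had peaks on 15 genes, with a median coding GC content of 72.7%, WT alone on 12, with 62.5%, and vector alone on EIF5AL1, a retrocopy related to the translation factor gene EIF5A. The median over the genes of all 3 lists was 63.1%. Of the 40, 20 and 19 genes without an exon or UTR peak in vector, WT and G325E, 36, 16 and 17 had no peak of any class. Of the same 40, 20 and 19 genes, 10, 6 and 0 skipped a peak number at their locus.

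**Figure D1:**
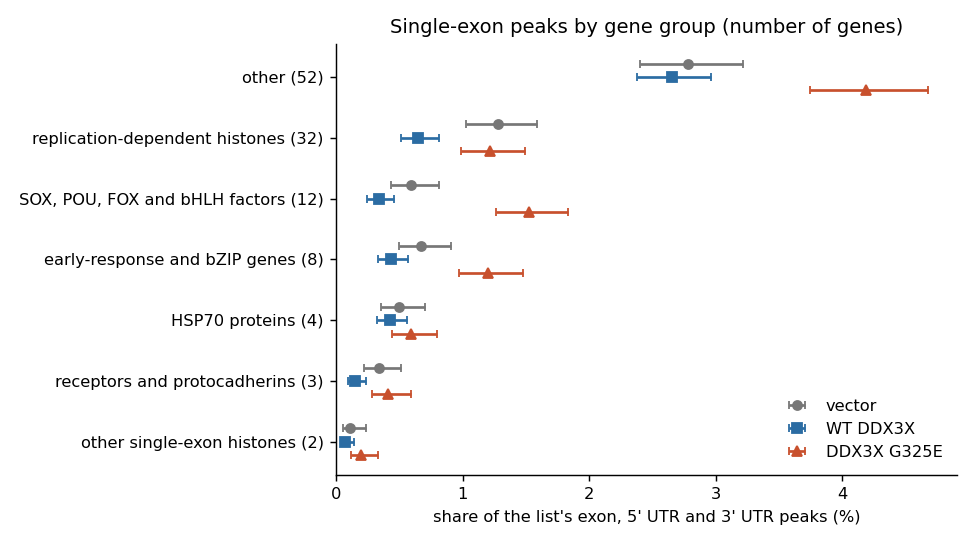
Share of each list's exon, 5′-UTR and 3′-UTR peaks (percent, horizontal axis) that lay on each group of single-exon genes, with the number of genes in brackets; points are the vector, WT DDX3X and DDX3X G325E lists and bars are 95% Wilson intervals. The transcription factors of the SOX, POU, FOX and bHLH families stood at 1.52% in G325E against 0.592% in vector and 0.336% in WT, whereas histones stood at 1.28% in vector, 0.645% in WT and 1.21% in G325E.

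The lists differed on the transcription factors. The SOX, POU, FOX and bHLH group, regulators of cell fate, had 12 genes with 37 peaks in vector, 39 in WT and 108 in G325E, which is 0.592% (0.430 to 0.814), 0.336% (0.246 to 0.458) and 1.52% (1.26 to 1.84) of the exon and UTR peaks. Of the 9 genes of this group that could be compared, 6 were at least 2-fold higher in G325E than in WT and 1 was lower (17.6% and 26.8% of all genes compared), and against vector 4 were higher and 1 lower (19.1% and 27%). With missing numbers counted as peaks, 4 of the 6 (FOXB2, FOXE1, POU3F3 and SOX4) stayed higher than in WT and 2 of the 4 (FOXC1 and FOXE1) higher than in vector. At these loci 55 numbers were missing from the vector list and 50 from the WT list, more than the peaks present in either list. FOXE1 is a forkhead factor of thyroid development (GRCh37 chromosome 9, 100615508 to 100618999, plus strand). It had 14 exon-class peaks in G325E and 0 in the other lists, with 3 numbers missing there in vector and 0 in WT. Of these 14 peaks, 6 lay on the strand opposite to the gene. The SOX4 peaks numbered 8 in vector, 3 in WT and 14 in G325E, and they covered 25.5%, 12.9% and 62.8% of its coding sequence. Those of FOXC1, a forkhead factor of eye and heart development, numbered 0, 5 and 13 and covered 0%, 13.9% and 72.2%, with 9 numbers missing there in WT. The neural POU factor POU3F3 had 1, 0 and 11 exon and UTR peaks, but 8 numbers were missing at its locus in vector and 8 in WT. Its promoter class held a further 8, 6 and 12 peaks, so WT and vector also had peaks on this gene. FOXB2, another forkhead factor, had 2, 0 and 8 peaks, with 6 numbers missing in vector. On the opposite strand lay 1 of its 2 peaks in vector and 5 of its 8 in G325E. The same held for 3 of the 11 POU3F3 peaks of G325E but for 0 of the 13 FOXC1 peaks. G325E held the most listed peaks on each of these 5 genes, which are set together for that reason. For FOXC1 against WT and FOXB2 against vector, the missing numbers would be enough to undo this order if they were peaks.
Other members of the group behaved otherwise. The peaks of POU3F2, a neural relative of POU3F3, numbered 6, 9 and 10, and those of SOX12 5, 8 and 9. SOX11, a neural SOX factor related to SOX4 (chromosome 2, 5832516 to 5841517, plus strand), had 7 peaks in vector, 7 in WT and 0 of any class in G325E. SOX4 and SOX11 therefore stood at opposite ends in G325E, with coding GC contents of 70.5% and 68.1%.

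The early-response and bZIP genes, which are switched on within minutes of a stimulus or carry a leucine zipper, numbered 8 and had 42 peaks in vector, 50 in WT and 85 in G325E (0.672%, 0.430% and 1.20% of the exon and UTR peaks). Of 6 that could be compared, 4 were higher in G325E than in WT and 1 was lower (17.6% and 26.8% of all genes). JUN, a subunit of AP-1 (chromosome 1, 59246463 to 59249719, minus strand), had 15, 23 and 22 peaks, of which 10, 7 and 8 were coding, and 74.9%, 81.1% and 75.8% of its coding sequence was covered by peaks of any class. The lists therefore differed little over the JUN coding sequence. CEBPB, a bZIP factor of inflammation and fat cell formation, had 10, 6 and 19 peaks, and 12.9%, 11.5% and 83.5% of its coding sequence was covered, with 12 numbers missing there in vector and 7 in WT. IER5 had 10, 6 and 12 peaks.
MAFA, a Maf factor of pancreatic beta cells, had 0 peaks in vector, 10 in WT and 0 in G325E, with 0 numbers missing there in vector.

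**Figure D2:**
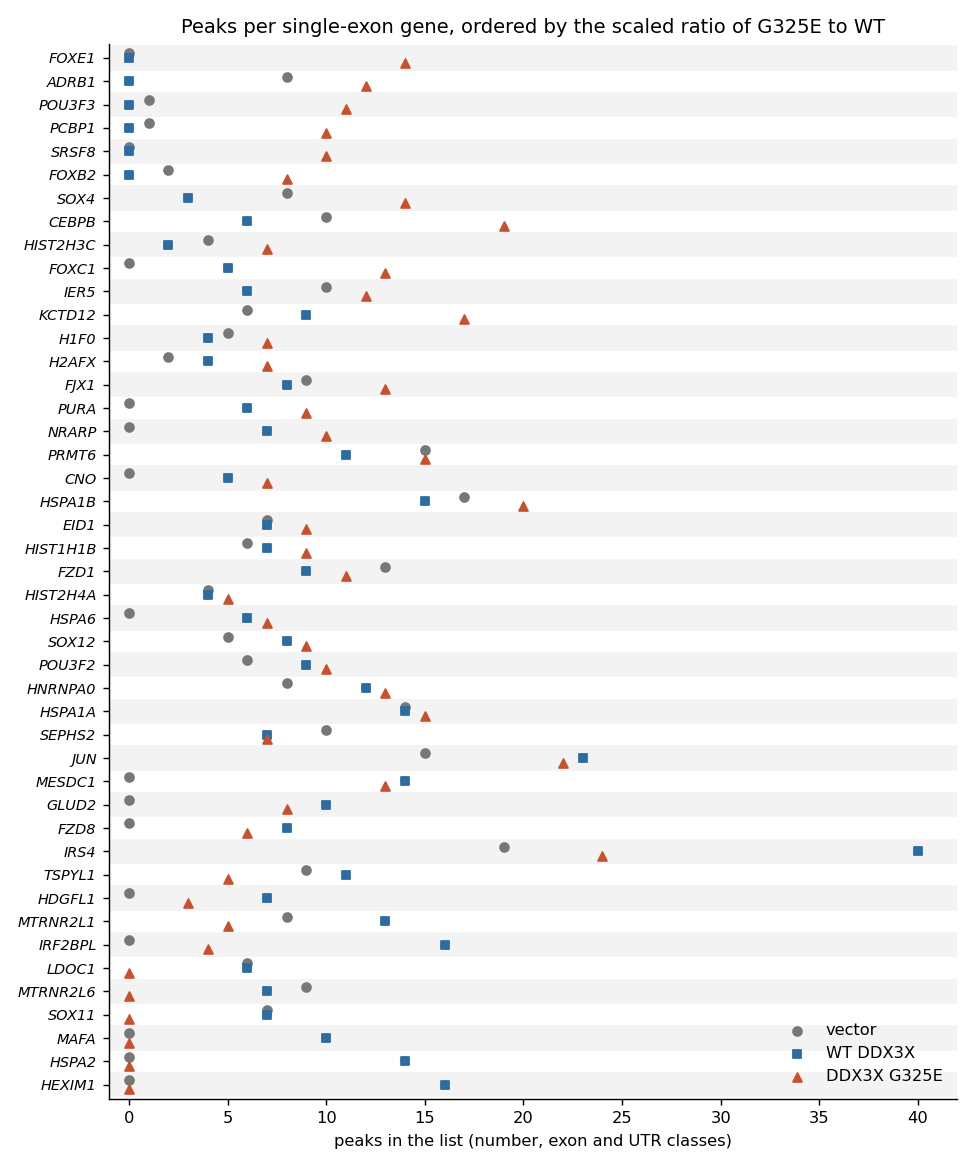
Number of exon and UTR peaks (horizontal axis) on each of 45 named single-exon genes in the vector, WT DDX3X and DDX3X G325E lists, ordered from the highest to the lowest scaled ratio of G325E to WT. FOXE1, with 14 peaks in G325E and 0 in WT, stands at the top and HEXIM1, with 0 and 16, at the bottom, and IRS4 has the most peaks in every list.

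Replication-dependent histones, which package newly made DNA, had similar numbers of peaks in lists of different size. Their 32 genes had 80 peaks in vector, 75 in WT and 86 in G325E, and 28 of the genes had a peak in every list. As a share of exon and UTR peaks this was 1.28%, 0.645% and 1.21%, a difference of 0.568 points between G325E and WT (0.286 to 0.879), of −0.634 between WT and vector (−0.970 to −0.335) and of −0.066 between G325E and vector (−0.452 to 0.311). Relative to list size, histone peaks of the exon and UTR classes were therefore fewer in WT than in the other lists. As a share of single-exon peaks this was 20.4% (vector), 13.7% (WT) and 13.0% (G325E), a difference of −7.40 points between G325E and vector (−12.3 to −2.77) and of −0.701 between G325E and WT (−4.62 to 3.13). By type, H4 genes had 23, 24 and 24 peaks, H3 genes 19, 18 and 19, H1 genes 16, 15 and 20, H2B genes 13, 12 and 15, and H2A genes 9, 6 and 8. No type differed between lists by more than 5 peaks of these classes. The promoter class, left out of these numbers, held a further 15, 22 and 13 peaks on H3 genes and 14, 19 and 16 on H4 genes. On H1, H2A and H2B genes WT had the fewest peaks of that class. The median covered share of the histone coding sequences was 76.2%, 74.8% and 72.3%. Of the 9 histone genes that could be compared, 2 (HIST1H1B and HIST2H3C) were at least 2-fold higher in G325E than in WT and 0 were higher than in vector (17.6% and 19.1% of all genes compared), whereas 6 were lower in WT than in vector (18.5%). The median log2 ratio of WT to vector over the 9 was −1.15, and 5 of the 6 stayed past 2-fold with missing numbers counted.
HIST1H1B, a linker histone, had 6, 7 and 9 peaks. HIST2H3C, an H3 gene, had 4, 2 and 7, and every one of these 7 lay on sequence found more than once in the genome. The peaks of HIST2H4A, an H4 gene, numbered 4, 4 and 5. Over all replication-dependent histones, 26, 27 and 37 peaks had a central 25 nt that occurs more than once in the genome, so peaks cannot be told apart between gene copies. Among the 2 single-exon histones outside the clusters, H1F0, the linker histone of resting cells, had 5, 4 and 7 peaks, and H2AFX, the H2A form marked at DNA breaks, had 2, 4 and 7.

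The HSP70 chaperones, which bind unfolded proteins, had 31 peaks in vector, 49 in WT and 42 in G325E over 4 genes, and 0 peak numbers were missing at their loci. As a share of exon and UTR peaks this was 0.496%, 0.422% and 0.592%. The G325E share was 0.171 points above WT (−0.034 to 0.402), within counting error. HSPA1A (chromosome 6, 31783320 to 31785719, plus strand) and HSPA1B (31795515 to 31798031), the stress-inducible pair, differ at 4 of 1923 coding bases, so peaks on them are uncertain between the 2 genes. The peaks of HSPA1A numbered 14, 14 and 15, and those of HSPA1B 17, 15 and 20. HSPA1A had 72.7%, 78.8% and 69.1% of its coding sequence covered, and HSPA1B 79.9%, 80.8% and 83.4%. The other members differed more. HSPA2, the HSP70 form best known from the testis, had 0 peaks in vector, 14 in WT and 0 in G325E, and no WT peak on it lay on repeated sequence. HSPA6 had 0, 6 and 7.

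Among receptors, FZD1 had 13, 9 and 11 peaks and FZD8 0, 8 and 6, and both bind Wnt ligands. After scaling, the log2 ratio of G325E to WT was 0.96 for FZD1 and 0.28 for FZD8, both below 2-fold. That of G325E to vector was −0.40 for FZD1. ADRB1, the heart adrenergic receptor (chromosome 10, 115803625 to 115806663, plus strand), had 8 peaks in vector, 0 in WT and 12 in G325E. In G325E 8 of its 12 peaks, and in vector 3 of 8, lay on the strand opposite to the gene.

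The other 52 genes had 174 peaks in vector, 309 in WT and 297 in G325E. As a share of exon and UTR peaks this was 2.78%, 2.66% and 4.19%. The G325E share was 1.53 points above WT (0.991 to 2.09) and 1.41 above vector (0.785 to 2.03). At these loci 60 numbers were missing from the vector list and 106 from the WT list. IRS4, an insulin receptor substrate abundant in this cell line (chromosome X, 107963179 to 107979639, minus strand), had 19, 40 and 24 coding peaks over 22.5%, 54.8% and 28.9% of its 3771 coding bases, with 0 peak numbers missing there. After scaling, its log2 ratio was −0.02 for G325E to WT and 0.18 for WT to vector, so the larger number in WT went with the larger list. The canonical GENCODE transcript of IRS4 has 2 exons, although the peak lists annotate it as having 1. PRMT6, an arginine methyltransferase that acts on histones, had 15, 11 and 15 peaks and 43.8%, 41.8% and 42.7% of its coding sequence covered. HNRNPA0, an RNA-binding protein, had 8, 12 and 13. SEPHS2, a selenium-handling enzyme, had 10, 7 and 7, and EID1, an inhibitor of differentiation, had 7, 7 and 9. TSPYL1, a nucleosome assembly relative, had 9, 11 and 5, and FJX1 had 9, 8 and 13. KCTD12, a subunit of GABA-B receptors, had 6, 9 and 17, with 5 numbers missing there in vector and 8 in WT. On each of these genes except KCTD12 the G325E and vector lists lay within 5 peaks of each other.

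Some genes had exon and UTR peaks in 1 or 2 lists only. HEXIM1, the inhibitor of the elongation kinase P-TEFb (chromosome 17, 43225842 to 43229466, plus strand), had 16 peaks in WT, over 70.5% of its coding sequence, and 0 in vector and G325E with 0 numbers missing there. LDOC1 had 6 peaks in vector, 6 in WT and 0 in G325E. PCBP1, a poly(C)-binding protein, had 1, 0 and 10, but 3 numbers were missing at its locus in vector and 3 in WT. Peaks of any class within its span numbered 7, 5 and 14, so no list was without peaks there. SRSF8, a splicing factor relative, had 10 peaks in G325E and 0 elsewhere, 4 of them on repeated sequence. NRARP, a target and inhibitor of Notch signalling, had 0, 7 and 10, PURA, a nucleic acid-binding protein of neurons, 0, 6 and 9, CNO 0, 5 and 7, HDGFL1 0, 7 and 3, and IRF2BPL 0, 16 and 4. These 5 genes and GLUD2, HSPA6, FZD8, FOXC1 and MESDC1 were the 10 with at least 10 peaks in all that had 0 in vector and some in both other lists. The share of all genes with this pattern is not given here. GLUD2, a retrocopy of the glutamate dehydrogenase gene GLUD1, had 0, 10 and 8, of which 8 in WT and 7 in G325E lay on repeated sequence. MTRNR2L1 (8, 13 and 5 peaks) and MTRNR2L6 (9, 7 and 0) are nuclear copies of mitochondrial ribosomal RNA, and the part of mitochondrial reads in their peaks was not tested.

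The 5′-UTR class of single-exon peaks differed between the lists within counting error when every gene was counted. It held 11.7% of the peaks in vector, 14.4% in WT and 13.3% in G325E, a difference of −1.13 points between G325E and WT (−5.11 to 2.76) and of 1.58 between G325E and vector (−2.71 to 5.56). On multi-exon transcripts the shares were 8.89%, 8.57% and 19.8%, with G325E 11.2 points above WT (10.1 to 12.3) and 10.9 above vector (9.67 to 12.1). The multi-exon difference exceeded the single-exon one by 12.3 points against WT (8.29 to 16.5) and by 9.31 against vector (5.15 to 13.8), by counting error over peaks. Without the MTRNR2L genes the single-exon shares were 6.83%, 10.7% and 11.7%, and G325E was then 4.88 points above vector (1.08 to 8.34) and 1.05 above WT (−2.67 to 4.65). For peaks on unique sequence they were 10.5%, 14.3% and 14.4%, with G325E 3.87 points above vector (−0.907 to 8.23). The annotation counts the first 100 nt of a transcript as promoter, and only 54 of the 108 transcripts with a GENCODE coding sequence have a 5′-UTR longer than that. With the promoter and terminator classes added and placed by the coding limits, the 5′-UTR shares were 14.7%, 16.9% and 16.9%. The promoter class itself took 23.1%, 22.7% and 21.8% of all peaks annotated to these transcripts.

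**Figure D3:**
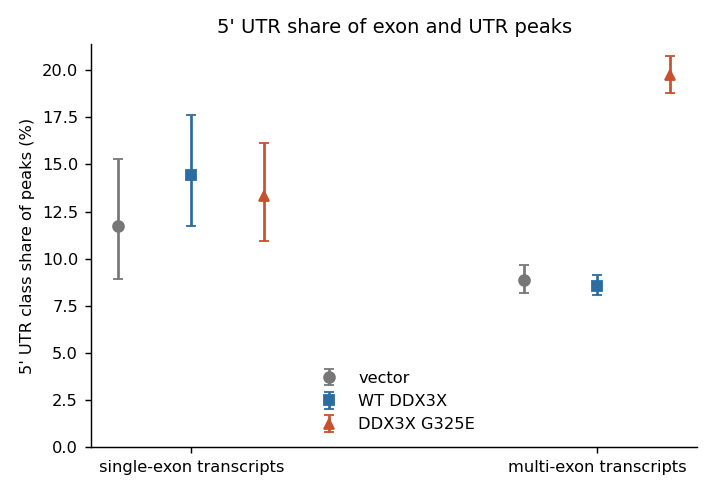
Share of exon and UTR peaks in the 5′-UTR class (percent, vertical axis) on single-exon and on multi-exon transcripts in the vector, WT DDX3X and DDX3X G325E lists, with 95% Wilson intervals. On single-exon transcripts the 3 intervals overlap around 11.7% to 14.4%, whereas on multi-exon transcripts G325E stands at 19.8% against 8.89% and 8.57%.

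Within coding sequences, the single-exon peaks of WT lay farther from the start codon in bases than those of the other lists. Relative positions differed between the lists within counting error. Midpoints were placed from 0 at the start codon to 1 at the stop codon on the GENCODE coding sequences of 108 genes, all of which begin with ATG. Their mean was 0.498 ± 0.267 (SD over peaks, n = 319) in vector, 0.502 ± 0.267 (n = 426) in WT and 0.476 ± 0.267 (n = 521) in G325E. The difference was −0.026 between G325E and WT (−0.060 to 0.008) and −0.022 between G325E and vector (−0.059 to 0.015). In bases, the mean distance from the start codon was 548 nt in vector, 638 nt in WT and 521 nt in G325E. The difference was −117 nt between G325E and WT (−189 to −45.3) and −26.6 nt between G325E and vector (−95.4 to 42.1). It was 90.3 nt between WT and vector (4.14 to 176), and coding lengths differ between the genes of each list. On multi-exon transcripts the mean relative positions were 0.507, 0.514 and 0.409, and the difference between G325E and WT was −0.106 (−0.116 to −0.095), towards the start codon. The first 10% of the coding sequence held 8.46%, 7.98% and 9.60% of the single-exon coding peaks, whereas it held 11.8%, 10.99% and 20.8% of the multi-exon ones. The multi-exon difference between G325E and WT in this share exceeded the single-exon one by 8.17 points (4.36 to 12.1). GC content was higher near the start codon in both kinds of transcript. In WT, peaks of the first 20% and of the last 20% of the coding sequence had 69.5% and 62.6% GC on single-exon and 61.7% and 56.0% on multi-exon transcripts. The part of GC content in the difference between the 2 kinds of transcript was not tested.

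**Figure D4:**
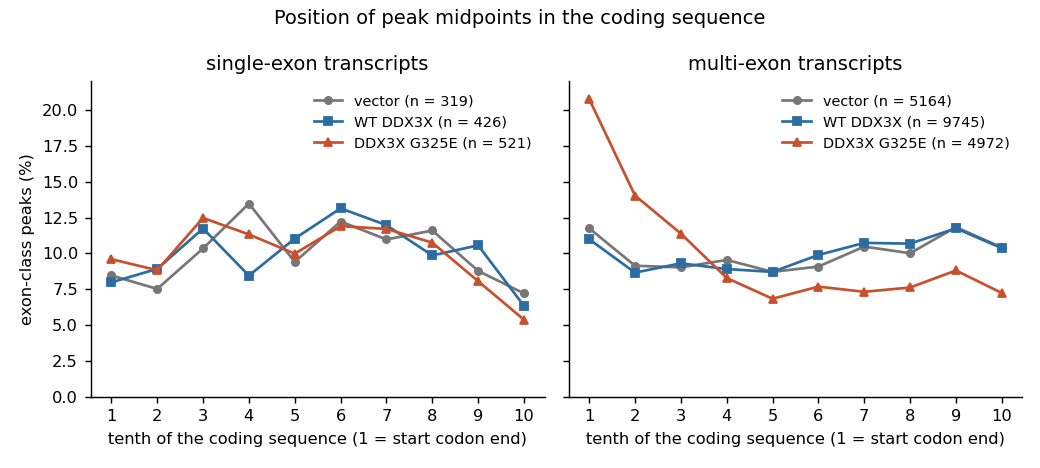
Percent of coding exon-class peaks (vertical axis) whose midpoint lay in each 10% of the coding sequence, from the start codon (1) to the stop codon (10), for single-exon and multi-exon transcripts in the vector, WT DDX3X and DDX3X G325E lists. The first 10% holds 9.60% of G325E peaks on single-exon and 20.8% on multi-exon transcripts.

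The 3′-UTR class held 3.83%, 5.48% and 3.78% of single-exon peaks, which is 15, 30 and 25 peaks. The genes with the most were JUN (3, 4 and 1 peaks in vector, WT and G325E), KCTD12 (1, 2 and 4), NRARP (0, 2 and 5), H2AFX (0, 2 and 4) and MTRNR2L1 (2, 4 and 0). None of these numbers is large enough to rank the lists for 1 gene.

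The single-exon peaks of G325E were richer in G and C. The 31 nt around the midpoint had a mean GC content of 64.3% ± 12.7 (SD over peaks, n = 392) in vector, 65.3% ± 12.2 (n = 547) in WT and 71.0% ± 12.3 (n = 661) in G325E, so G325E was 5.76 points above WT (4.37 to 7.15) and 6.67 above vector (5.11 to 8.24). On multi-exon transcripts the means were 59.5%, 58.9% and 69.3%, and the step from WT to G325E was 10.4 points (10.0 to 10.8). Single-exon peaks of vector and WT thus began at a higher GC content, and the lists were closer together. On the 62 genes with peaks in every list the means were 64.5%, 64.2% and 68.6%, so the difference was also present on the same genes.
By gene group, the difference between G325E and WT was 6.91 points on the SOX, POU, FOX and bHLH factors (3.34 to 10.5) and 1.33 on the replication-dependent histones (−1.05 to 3.71). It was 2.91 on the early-response and bZIP genes (−0.995 to 6.82) and 3.31 on the HSP70 genes (−0.521 to 7.15). Only the SOX, POU, FOX and bHLH group and the 52 ungrouped genes, with 5.81 points (3.73 to 7.89), had an interval that lay above 0.

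**Figure D5:**
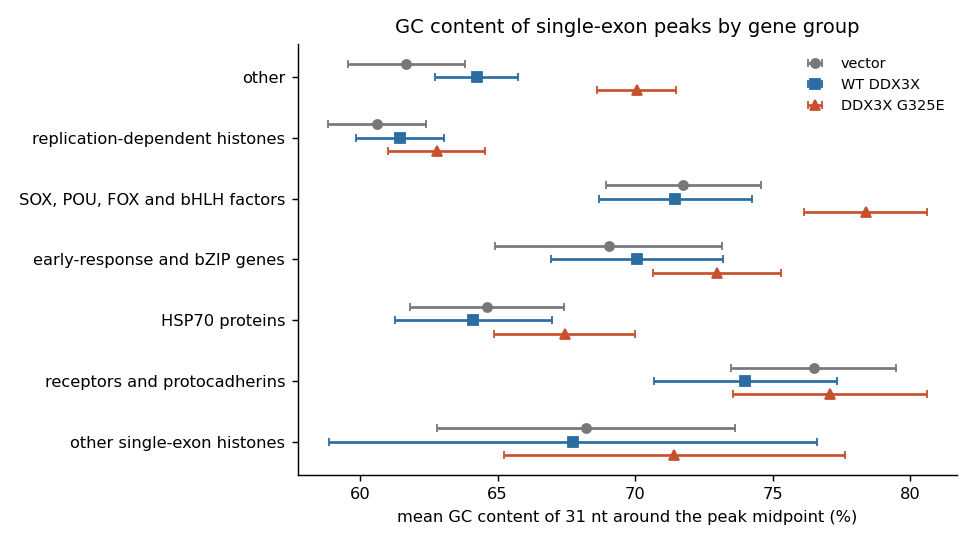
Mean GC content (percent, horizontal axis) of the 31 nt around the midpoint of single-exon peaks for each gene group in the vector, WT DDX3X and DDX3X G325E lists; bars are 95% intervals over peaks. The SOX, POU, FOX and bHLH factors stand at 71.8%, 71.5% and 78.4% and the replication-dependent histones at 60.6%, 61.5% and 62.8%.

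At the level of single sites, the single-exon peaks merged over the lists gave 849 sites, with overlapping peaks on 1 strand joined. Of these, 212 (24.97%) had a peak in every list, 261 in G325E only, 156 in WT only and 48 in vector only. Multi-exon peaks gave 14096 sites, of which 15.6% had a peak in every list, 17.7% in G325E only, 37.5% in WT only and 5.56% in vector only. Among single-exon sites the corresponding shares were 24.97%, 30.7%, 18.4% and 5.65%. The mean GC content was 76.2% at the single-exon sites of G325E only against 75.5% at the multi-exon ones, so GC-rich sites found in G325E alone occurred in both kinds of transcript. It was 65.6% at the WT-only single-exon sites and 65.6% at those of every list. On the 62 genes with peaks in every list, 212 of 487 sites (43.5%) were shared by all and 96 were in G325E only, again with a GC content of 76.1%. On the histones, 59 of 84 sites (70.2%) were in every list and 4 in G325E only. Of the G325E single-exon peaks 56.3% overlapped a WT peak and 43.9% a vector peak, close to the 58.5% and 44.04% of G325E multi-exon peaks, with differences of −2.20 points (−6.19 to 1.73) and −0.169 points (−4.10 to 3.83). In the other direction 61.1% of WT single-exon peaks overlapped a G325E peak against 31.3% of WT multi-exon peaks, 29.7 points more (25.5 to 33.8). For vector the shares were 71.9% and 46.2%, 25.8 points apart (20.9 to 30.2). Shares of overlap depend on the sizes of the lists and on the missing rows.

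The strand of the peaks differed too. Of single-exon peaks with a known gene strand, 8.80% in vector, 7.56% in WT and 13.0% in G325E lay on the opposite strand, and the G325E share was 5.41 points above WT (1.90 to 8.87) and 4.17 above vector (0.0949 to 7.94). Repeated sequence did not follow this order, since the central 25 nt occurred more than once in the genome for 22.2%, 18.3% and 17.9% of single-exon peaks, against 15.8%, 12.4% and 10.9% of multi-exon peaks.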

How the data were processed

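Ribosome-protected fragments were sequenced from HEK293T cells with 1 library per construct. The files deposited by the authors are peak lists, 1 per sample, whose columns hold positions (start, end, strand) and a HOMER annotation in a version not given in the sources used here. Per the submitters' processing notes reads were trimmed with cutadapt and aligned with BWA 0.5.5 to hg19; by its methods for a related assay, which the study says it reused, duplicates were removed, peaks were called per sample where base coverage reached 10 and then refined, merged and reviewed by eye. Such steps can move a short or repeated region in or out of a list. The distance column was not used, since positions were computed from the transcript annotation. The number of columns of other samples was 0.

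Midpoints were placed on GENCODE release 44 coding sequences lifted to GRCh37, and GC content was read from 31 nt of GRCh37. All 24 chromosomes of the lists were found there and 0 peaks passed an end. Peaks of no length (1, 2 and 7 of the single-exon peaks) counted as 1 base. Shares have 95% Wilson intervals, differences Newcombe intervals, and means intervals of 1.96 standard errors over peaks. A share of 0 allows up to 3 peaks (0.765%, 0.548% and 0.454% of single-exon peaks in vector, WT and G325E). Peaks per gene were scaled to the lists' exon and UTR totals, with 0.5 added, for genes with at least 10 summed peaks, and a 2-fold rule was checked on simulated data. Values were computed in Python (3.11.15), using pandas (2.3.3), numpy (2.4.6) and scipy (1.17.1), and drawn with matplotlib (3.10.9).

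Members and gene lists were chosen with earlier results of these data known. Named genes were the 12 with the most coding peaks, the 5 highest and 5 lowest ratios of G325E to WT, the 3 with the most peaks of each list, the 5 with the most 3′-UTR peaks, and those with at least 10 peaks in all and 0 in a list. EIF5AL1 was named after its values were seen. A gene chosen by this rule is not reported here.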

Additional observations from a re-analysis of the deposited data

How the results depend on the processing

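No paired analysis was possible because each construct has 1 library. Of 135 values recomputed under another setting, 101 stayed within the interval of the reported value (for counts of genes, within 1.5 times), and 34 moved; the alternatives on missing peak numbers, on the MTRNR2L genes, on repeated sequence for the 5′-UTR share and on genes found in all lists were chosen after seeing the data. Values are in the order vector, WT and G325E. The single-exon share moved to 5.05%, 4.09% and 8.21% without histone genes, to 3.49%, 2.75% and 4.22% of all peaks, to 7.85% and 6.36% (vector and WT) over genes of either kind with peaks in every list, to 5.33% in WT at equal GC content, to 8.66% in G325E for unique sequence, and to 8.56% and 6.30% in vector and WT with missing numbers counted. G325E held the highest share under each of these. The 5′-UTR share moved to 6.83% and 10.7% (vector and WT) without the MTRNR2L genes and to 16.9% in G325E with the promoter and terminator classes. Taking the 5′ end of the peak gave mean coding positions of 0.456, 0.464 and 0.444. Mean GC content moved to 64.2% in WT and 68.6% in G325E over genes with peaks in every list, and in G325E to 72.0% for peaks of at least 25 bp and 72.2% without histones. The histone share was 10.7% in WT and 9.02% in G325E for unique sequence, and the overlap of WT with vector was 58.7% for peaks of at least 25 bp. With no minimum number of peaks, 46 and 19 genes were past 2-fold higher and lower in G325E against WT, 33 and 7 against vector, and 25 were higher in WT than in vector. With promoter and terminator classes 5 were lower in G325E than in vector, and with median scaling 6 were lower in WT than in vector. With missing numbers counted, 16 were higher in G325E than in WT and 16 lower in WT than in vector. The single-exon share of G325E and the counts of genes lower in G325E could not move under that setting. The cause of these moves was not tested. The reads behind each peak are not in the files, the libraries differed in depth, peaks of 1 gene are not independent, and differences between cultures cannot be told apart from differences between constructs.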
